A study of Mus musculus with 2 samples.

Results

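*Foxp1*, *Foxp2* and *Foxp4* are the 3 genes of the Foxp family described here, by the p300 peaks around them in the dorsal cerebral wall of mouse embryos. A peak was assigned to a gene when its midpoint lay inside the gene body or within 500 kb of the transcription start site, taken as the start of the GENCODE vM1 transcript with the longest coding sequence. By this rule 24 of the 6629 deposited p300 peaks belonged to the family, 7 to *Foxp1*, 7 to *Foxp2* and 10 to *Foxp4*. No peak was shared between the 3 loci, which lie on chromosome 6 (*Foxp1* and *Foxp2*) and chromosome 17 (*Foxp4*).

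The tissue came from embryonic day 14.5 (E14.5) embryos of the outbred Swiss Webster stock, and no genotype or treatment other than formaldehyde fixation is given in the labels. Dermis, skull and the medial structures of the cortex had been cut away, so the sample held the neocortical wall with its progenitor and neuronal layers mixed together. The number of embryos is not given in the sources used here. There was 1 library immunoprecipitated with the anti-p300 antibody C-20 and 1 input library of the same tissue, with no replicate of either. The peak list gives mm9 positions without scores or read counts, so the depth behind a single peak is unknown, and a difference in height between peaks could not be measured. The authors had removed peaks that overlapped exons or lay within 2.5 kb of a start site, so promoters could not be assessed.

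Foxp proteins are transcription factors of the forkhead family. They bind DNA through a winged-helix forkhead domain, pair with one another through a leucine zipper, and act mostly as repressors. In the developing cortex Foxp1 is known from projection neurons of the middle and upper cortical plate, Foxp2 from deep-layer neurons, above all those that project to the thalamus, and Foxp4 from progenitors as well as neurons. The fourth member of the family, Foxp3, is known as the factor of regulatory T cells. p300 is an acetyltransferase that transcription factors recruit to active enhancers, so its peaks away from promoters are used as a map of candidate enhancers.

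To show sequence from the peaks, the middle 200 bases of the peak nearest to each start site on either side are printed here from the NCBIM37 (mm9) reference, plus strand, 5′ to 3′. They are reference sequence, not sequence of the embryos. Because the list gives only the start and end of a peak, where within a peak p300 was bound is unknown. Capitals mark the words searched for below on both strands: TGTTTAC and TATTTGT (forkhead), CAGATG (the E-box of Neurod and Neurog factors), TAATTA (homeodomain), TTGGC followed after 5 bases by GCCAA (the palindrome of Nfi factors), AACAAT (Sox) and GTTGCCA (the word of Rfx factors).
Foxp1 peak 5384, chr6:98944151-98944350: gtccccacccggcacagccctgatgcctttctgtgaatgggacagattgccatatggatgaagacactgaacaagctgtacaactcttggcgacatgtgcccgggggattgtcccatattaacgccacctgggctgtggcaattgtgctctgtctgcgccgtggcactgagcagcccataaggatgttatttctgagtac
Foxp1 peak 5385, chr6:99279585-99279784: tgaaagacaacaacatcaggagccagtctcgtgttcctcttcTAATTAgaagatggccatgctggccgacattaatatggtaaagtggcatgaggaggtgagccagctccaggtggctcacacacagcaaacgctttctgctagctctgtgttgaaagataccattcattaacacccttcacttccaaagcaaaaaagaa
Foxp2 peak 5157, chr6:15101756-15101955: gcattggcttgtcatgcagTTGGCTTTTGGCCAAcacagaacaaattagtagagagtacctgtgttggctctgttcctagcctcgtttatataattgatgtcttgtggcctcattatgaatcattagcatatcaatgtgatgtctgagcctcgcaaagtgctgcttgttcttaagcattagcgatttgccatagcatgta
Foxp2 peak 5158, chr6:15235276-15235475: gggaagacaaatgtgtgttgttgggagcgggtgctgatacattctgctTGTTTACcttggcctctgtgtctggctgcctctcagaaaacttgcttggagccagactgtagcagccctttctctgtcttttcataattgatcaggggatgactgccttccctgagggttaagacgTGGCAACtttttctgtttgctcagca
Foxp4 peak 2705, chr17:48051797-48051996: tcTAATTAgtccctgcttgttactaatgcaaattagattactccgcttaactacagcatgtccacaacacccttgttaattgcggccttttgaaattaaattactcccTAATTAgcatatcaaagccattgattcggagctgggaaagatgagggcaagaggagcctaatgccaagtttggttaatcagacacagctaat
Foxp4 peak 2706, chr17:48080138-48080337: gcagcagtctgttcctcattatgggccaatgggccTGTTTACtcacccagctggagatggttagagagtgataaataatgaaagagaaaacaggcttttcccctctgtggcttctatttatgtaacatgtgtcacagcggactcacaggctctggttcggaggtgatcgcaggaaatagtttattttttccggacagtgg
The middle of *Foxp2* peak 5157 held the Nfi palindrome, that of peak 5158 a forkhead word and, as TGGCAAC on the printed strand, an Rfx word, that of *Foxp1* peak 5385 a homeodomain word, that of *Foxp4* peak 2705 a pair of them, and that of peak 2706 a forkhead word. The middle of *Foxp1* peak 5384 held none of the words.

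The 3 genes differed in where their peaks lay (the map of peaks by distance from the start site). At *Foxp4* the peaks crowded around the start site, the nearest 9.5 kb and the farthest 176.7 kb away, with a median distance of 50.5 kb. At *Foxp2* they ran from 33.6 to 365.4 kb with a median of 162.3 kb, and at *Foxp1* from 166.7 to 472.1 kb with a median of 322.5 kb. These distances depend on the start chosen by the rule. Other annotated starts lay as near as 33.9 kb to a peak at *Foxp1* and 16.0 kb at *Foxp2*. The first peak outside the limit of 500 kb lay farther out: that of *Foxp1* was 728.9 kb upstream, that of *Foxp2* 584.8 kb upstream and that of *Foxp4* 1054.7 kb upstream.

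**Figure D1:**
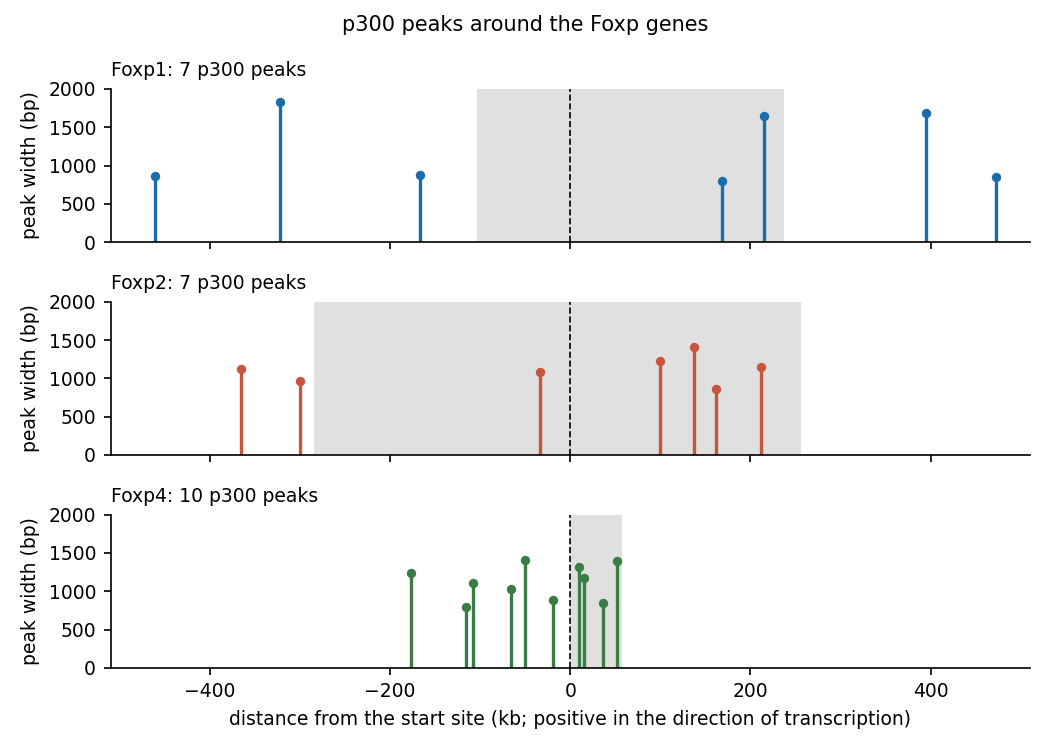
Each vertical line is 1 p300 peak, placed by the distance of its midpoint from the start site (kb, positive in the direction of transcription) and as tall as the peak is wide (bp); grey marks the annotated gene body and the dashed line the start site. The 10 peaks of *Foxp4* sit between 176.7 kb upstream and 51.4 kb downstream of the start. *Foxp1* has none within 100 kb of the start used, while its other annotated starts have 1 or 2.

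*Foxp4* (ENSMUSG00000023991) is a gene of 57.5 kb that spans positions 48004082 to 48061594 of chromosome 17 and is transcribed from the minus strand. Its locus of 1 Mb held 10 peaks, or 10.14 per Mb (exact Poisson 95% interval 4.86 to 18.65, for counting error only), where its assembled length predicts 2.56. This was 3.91 times the prediction, with a p of 0.0131 in an exact binomial test for an excess of peaks, one-sided and corrected by Benjamini-Hochberg over 22367 protein-coding genes. The same test called 914 genes, or 4.09% of those tested, and the locus of 2.73% of all coding genes held at least 10 peaks.

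The *Foxp4* peaks began inside the gene and continued upstream of it, and the 442.7 kb of the locus downstream of the gene held 0 peaks (exact Poisson upper limit 8.33 per Mb). The gene body held 4 of them, or 69.55 per Mb (exact Poisson 95% interval 18.95 to 178.07). Introns are numbered here in the transcript that gave the start site. Peaks 2705 (chr17:48051242-48052552) and 2704 (chr17:48045926-48047098) lay in intron 1, 9.5 and 14.9 kb from the start site, with 4.14 kb between their edges. Peak 2703 (chr17:48024114-48024966) lay in intron 3, and its edge overlapped 125 bases of an exon of a transcript without coding sequence in GENCODE vM1, which is not the gene set used by the authors to remove such peaks. Its midpoint was 0.56 kb from a transcript start in GENCODE vM1, less than the 2.5 kb of the authors' filter. Peak 2702 (chr17:48009300-48010695) lay in intron 13, 51.4 kb from the start site and nearer to the start of *Mdfi*, at 38.4 kb. For a gene of this length 4 peaks were uncommon, since 16 of 5615 coding genes between 0.5 and 2 times as long, or 0.285%, had at least as many in their body. Within 100 kb of the start site there were 7, a count reached by 0.148% of all coding genes. Neither comparison was planned, and both are given without a test. The same holds for the gene bodies of *Foxp2* and *Foxp1* below.

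The other 6 *Foxp4* peaks were intergenic and upstream. The nearest, peak 2706 (chr17:48079797-48080680), was 18.9 kb from the start site, and the widest of the locus, peak 2707 (chr17:48110389-48111800, 1412 bp), was 49.7 kb away. Peak 2708 followed at 65.7 kb, peak 2709 at 107.7 kb and peak 2710, the narrowest with 792 bp, at 115.1 kb. The farthest was peak 2711 (chr17:48237452-48238694), 176.7 kb from *Foxp4* and 11.5 kb from *1700067P10Rik*, a coding gene known only by a clone name, which was also the nearest coding start for peaks 2709 and 2710.

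Together the 10 *Foxp4* peaks filled 229.4 kb, and long stretches without peaks bordered them. The next peak on the low-coordinate side was 2.0 Mb away and that on the high-coordinate side 0.88 Mb away, and 3% and 11.3% of the 6609 gaps between neighbouring peaks were at least as long. Of 6449 overlapping runs of 10 neighbouring peaks in the genome, 84 (1.3%) were no longer than this one, and the median run spanned 2.69 Mb. These comparisons were chosen after the positions were seen and are given without a test.

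Because the *Foxp4* peaks lie in gene-rich sequence, distance alone does not give them to *Foxp4*. Of 26 other coding start sites in the locus, 20 passed the same test on the same 10 peaks, among them *Mdfi*, an inhibitor of myogenic factors, and *Tcfeb*, a regulator of lysosomal genes. The call held with a reach of 250 kb, in which all 10 peaks remained (adjusted p = 1.92e-04, exact binomial test, 2.09% of coding genes called), and was lost with a reach of 1 Mb, which added no peak (adjusted p = 0.269, the same exact test, 6.87% called). With regulatory domains bounded by the neighbouring coding genes *Foxp4* had 9 peaks against 0.62 predicted (1.13% of coding genes called), and with domains bounded by every annotated gene it had 0 (0.590% called). The 6 alternatives that changed the peak set or the prediction kept the call, with 7 of the wider peaks (2.05% called), 9 peaks after neighbours were joined (2.30%), and 10 when any overlap counted (4.10%), with the share of the own chromosome (3.20%), with exons and start sites left out (5.12%) or without *Gm* and *Rik* genes (4.21%).

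**Figure D2:**
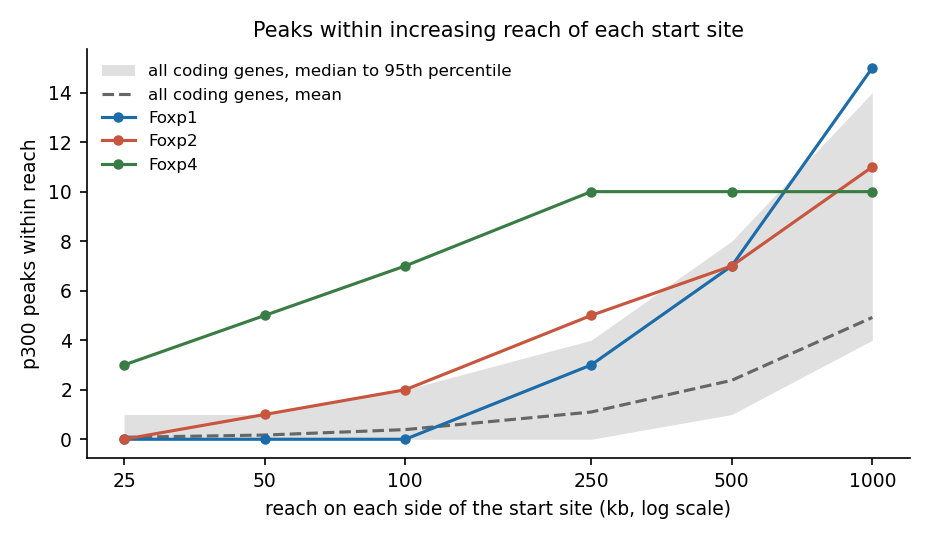
The number of p300 peaks (vertical axis) within a given reach on each side of the start site (horizontal axis, kb, log scale) is drawn for the 3 genes; the grey band runs from the median to the 95th percentile of all coding genes and the dashed line is their mean. *Foxp4* reaches 7 peaks within 100 kb, where the 95th percentile is 2, and gains none beyond 250 kb. *Foxp1* rises from 0 within 100 kb of the start used to 15 within 1000 kb.

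*Foxp2* (ENSMUSG00000029563) covers 540.6 kb of the plus strand of chromosome 6, from 14851349 to 15391977. The transcript with the longest coding sequence starts inside the gene, at 15135506, and other coding transcripts start at the outer 5′ end. The locus held 7 peaks, or 7.0 per Mb (exact Poisson 95% interval 2.81 to 14.42), 2.70 times the 2.59 predicted. This did not pass the test after adjustment (adjusted p = 0.197, one-sided exact binomial test; 8.63% of coding genes had at least as many peaks), nor did it with any of the alternatives tried, whose folds ran from 2.12 to 4.22.

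Of the 7 *Foxp2* peaks, 5 lay within the gene body, where 62 of 579 coding genes of 0.5 to 2 times its length, or 10.7%, had at least as many. Peak 5157 (chr6:15101314-15102398), 33.6 kb upstream of the inner start site, was the nearest to it and lay between the outer and the inner starts. The other 4 followed downstream of it within introns, peak 5158 (chr6:15234764-15235989) in intron 2 at 99.9 kb, peak 5159 (chr6:15272631-15274045) in intron 3 at 137.8 kb, peak 5160 (chr6:15297407-15298268) in intron 4 at 162.3 kb and peak 5161 (chr6:15347170-15348314) in intron 9 at 212.2 kb. Peak 5159 was the widest of the locus with 1415 bp and peak 5160 the narrowest with 862 bp. Peak 5161 also shared 674 bases with the last exon of a shorter *Foxp2* transcript in GENCODE vM1, which is not the gene set of the authors' exon filter.

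The remaining *Foxp2* peaks stood upstream of the gene. Peak 5156 (chr6:14834840-14835810) was 300.2 kb from the inner start site but 16.0 kb from the outermost coding start. Peak 5155 (chr6:14769511-14770628) was the farthest, at 365.4 kb. The only other coding start in the locus was that of *Ppp1r3a*, a muscle glycogen phosphatase subunit. Peak 5155 was nearer to it, at 64.8 kb, than to the outermost coding start of *Foxp2*, at 81.3 kb. Peak 5156 was 130.1 kb from it, nearer than to the inner start of *Foxp2* but farther than from the outermost. As at *Foxp4*, the sequence downstream of the gene was without peaks, 0 in the 243.5 kb up to the limit of the locus (exact Poisson upper limit 15.15 per Mb), and the next peak was 0.68 Mb away.

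*Foxp1* (ENSMUSG00000030067) spans positions 98875332 to 99216526 of chromosome 6, or 341.2 kb. It is transcribed from the minus strand, and its longest coding transcript starts at 99113012. It too had 7 peaks (7.0 per Mb, exact Poisson 95% interval 2.81 to 14.42) and did not pass (fold 2.70, adjusted p = 0.197, one-sided exact binomial test). With a reach of 1 Mb it had 15 peaks, 2.89 times the prediction, and passed with an adjusted p of 0.00807 (exact binomial test), where 6.87% of coding genes did. The 8 peaks gained between these limits lay upstream at distances of 728.9 to 997.9 kb, nearest to the starts of *Prok2* and *Rybp*.

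The *Foxp1* peaks were spread over 933.8 kb, with 46.0 to 335.4 kb between neighbours. Downstream of the gene lay peaks 5381 (chr6:98640497-98641340), the farthest at 472.1 kb, and 5382 (chr6:98717027-98718706) at 395.1 kb. Peak 5381 was 348.2 kb from the start of *Gm765* and 337.3 kb from the nearest coding start of *Foxp1*. Inside *Foxp1* lay peak 5383 (chr6:98897457-98899099) in intron 9 and peak 5384 (chr6:98943853-98944649) in intron 6, 214.7 and 168.8 kb from the start site, the latter the narrowest of the locus with 797 bp. A count of 2 in the gene body was common for its length, since 27.9% of 1061 coding genes of 0.5 to 2 times the length had at least as many.

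Upstream, *Foxp1* peaks 5385 (chr6:99279250-99280120), 5386 (chr6:99434614-99436443) and 5387 (chr6:99573393-99574253) lay 166.7, 322.5 and 460.8 kb from the start site. GENCODE vM1 places all 3 inside *Eif4e3*, which codes for a cap-binding translation factor. Peak 5386, the widest of the family with 1830 bp, also shared 83 bases with an annotated miRNA, AC152987.1. The midpoint of the peak was 0.83 kb from the start of that miRNA.

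Where *Foxp1* begins changed how these upstream peaks are read. RefSeq lists 3 promoters for *Foxp1* in the table used here (build GRCm38.p6), and their 300-base sequences matched NCBIM37 exactly, at starts 98978292, 99216509 and 99470987. Counted from the outermost, peak 5386 lay 35.5 kb and peak 5385 191.3 kb downstream of the start and so within the transcribed stretch, and peak 5387 lay 102.8 kb upstream. A locus drawn around that start, an alternative chosen after the data were seen, held 9 peaks against 2.84 predicted and did not pass (adjusted p = 0.0649, exact binomial test). The nearest peak was 34.0, 63.2 and 35.5 kb from the 3 RefSeq starts in the same order, against 166.7 kb from the start used by the rule. The single RefSeq promoter of *Foxp4* matched at 48061581, 0.2 kb from the start used, and for *Foxp2* the table has no entry.

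Read against all coding genes, the family's counts stood above the typical locus without being extreme (the distribution of peaks per locus). The median coding gene had 1 peak in its locus, the quartiles were 0 and 3, and the highest count was 51. By the rule used for the family, *Foxp3* (ENSMUSG00000039521, chromosome X, plus strand) had 1 peak where 2.59 were predicted, and 69.9% of coding genes had at least as many.

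**Figure D3:**
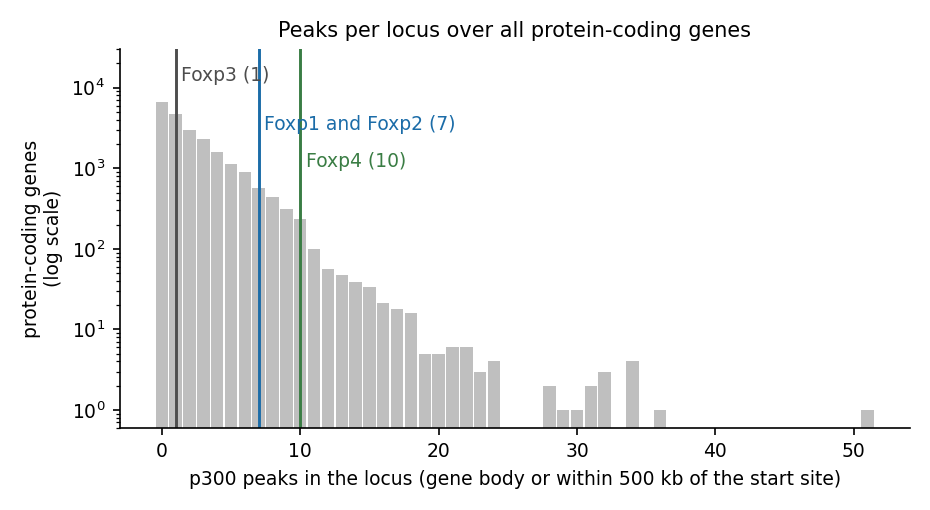
Bars give the number of protein-coding genes (vertical axis, log scale) with each number of p300 peaks in their locus (horizontal axis), and vertical lines mark the Foxp genes. *Foxp1* and *Foxp2* share the position at 7, *Foxp4* stands at 10 and *Foxp3* at 1, within a distribution that runs from 0 to 51.

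With 1 start site per gene, 15 of the 24 peaks (62.5%, exact Clopper-Pearson 95% interval 40.6 to 81.2%) had that of their own Foxp gene as the nearest coding start. These were 4 of 7 at *Foxp1*, 5 of 7 at *Foxp2* and 6 of 10 at *Foxp4*. Other starts of the Foxp genes lay nearer to some of the rest. Peak 5156 was 16.0 kb from a *Foxp2* coding start (*Ppp1r3a* at 130.1 kb), and peak 5381 337.3 kb from a *Foxp1* one (*Gm765* at 348.2 kb). Peak 5386 was 35.5 kb from a RefSeq start of *Foxp1* (*Eif4e3* at 181.2 kb). The remaining peaks stayed nearer to the other gene. With 1 start for each annotated gene, non-coding ones and pseudogenes included, 4 of 24 peaks (16.7%) had their own Foxp gene nearest. None of these was at *Foxp4*, where the start of *Gm15556* was 7.4 kb from peak 2705 and that of *Foxp4* 9.5 kb. In the gene bodies of coding genes, whichever they were, lay 14 of the 24 peaks (58.3%), against 42.7% of all peaks. The rule itself takes peaks inside the body of a coding gene, and that of *Foxp2* covers 540.6 kb of its locus. The 2 shares therefore cannot show a trait of the family.

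The peaks of the 3 genes differed most plainly in base composition (the plot of width against GC content). GC content ran from 32.9 to 37.9% at *Foxp2*, from 36.3 to 48.3% at *Foxp1* and from 49.0 to 58.7% at *Foxp4*, so that the *Foxp4* peaks did not overlap with those of either other gene. The loci differed in the same order, with 37.3% GC at *Foxp2*, 43.8% at *Foxp1* and 48.5% at *Foxp4*, and their part in the difference between peaks was not tested. Within their loci, all 10 *Foxp4* peaks were richer in GC than the locus as a whole, as were 4 of 7 at *Foxp1* and 1 of 7 at *Foxp2*. The median *Foxp2* peak, at 35.1%, was above 5.4% of all p300 peaks, and the median *Foxp4* peak, at 53.8%, above 90.1%.

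Width separated the genes less. The median peak was 871 bp wide at *Foxp1*, 1118 bp at *Foxp2* and 1143 bp at *Foxp4*, against 1017 bp over all peaks, and the ranges overlapped (797 to 1830, 862 to 1415 and 792 to 1412 bp). At *Foxp1* the widths fell apart into 3 peaks of at least 1643 bp and 4 of at most 871 bp. Of the 24 peaks, 15 were at least as wide as the median of all peaks.

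**Figure D4:**
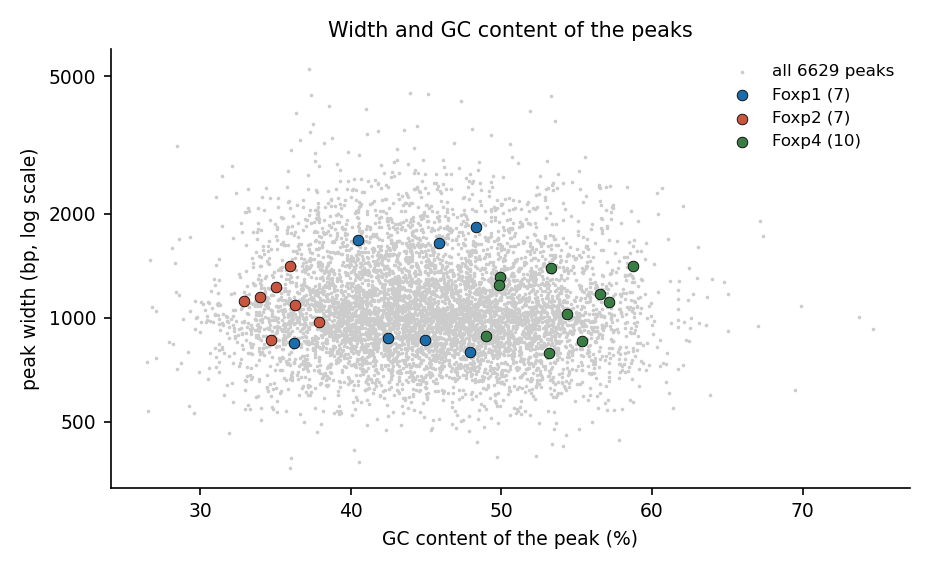
Each point is 1 peak, by its GC content (horizontal axis, %) and width (vertical axis, bp, log scale), with all 6629 peaks in grey. *Foxp2* peaks lie between 32.9 and 37.9% GC and *Foxp4* peaks between 49.0 and 58.7%, with those of *Foxp1* from 36.3 to 48.3%.

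Since Foxp proteins are forkhead factors, the peaks at their own genes were searched for forkhead words. TGTTTAC, read on either strand, occurred in 8 of the 24 peaks (33.3%, against 17.6% of all 6629 peaks). The exact Clopper-Pearson 95% interval of this share, 15.6 to 55.3%, reaches below 17.6%. It covers counting error only, takes the 24 peaks as independent although peaks cluster, and is no test. In regions of equal length, the middle 500 bases of each peak, TGTTTAC occurred in 6 of 24 (25%), in 9.1% of all peaks and in 8.1% of 5875 windows of 500 bases tiled over the 3 loci outside peaks. By gene, 1 of 7 *Foxp1* peaks, 3 of 7 *Foxp2* peaks and 4 of 10 *Foxp4* peaks had it. The other forkhead word, TATTTGT, had been chosen as the form that Foxp proteins prefer. It was in 5 of 24 peaks (20.8%, against 22.8% of all peaks). In the middles its share was 12.5%, against 9.7% of all middles and 13.2% of the windows. These shares are descriptions without a test, and a matching word is not a binding site.

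The TGTTTAC words nearest to the midpoint of a peak are printed with 10 bases on each side, because they lie closest to the centres of their peaks. Each is given from the strand on which the word, in capitals, reads TGTTTAC.
Foxp2 peak 5161, chr6:15347740-15347766, plus strand: caaaaagatgTGTTTACaaatggcaga
Foxp4 peak 2703, chr17:48024504-48024530, minus strand: tctggccttcTGTTTACcttttgtgtc
Foxp2 peak 5160, chr6:15297865-15297891, minus strand: ctcagtcttcTGTTTACtaagcttggc
Foxp2 peak 5158, chr6:15235314-15235340, plus strand: acattctgctTGTTTACcttggcctct
Foxp4 peak 2706, chr17:48080163-48080189, plus strand: ccaatgggccTGTTTACtcacccagct
In the order printed they were 11, 23, 41, 49 and 62 bases from the midpoint. All 5 lie in peaks of *Foxp2* or *Foxp4*, and the single TGTTTAC word at *Foxp1*, in peak 5383, was 320 bases from the midpoint. The word printed from peak 5161 lies inside the annotated last exon of a shorter *Foxp2* transcript.

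The words of other cortical factors were counted in the same way, in whole peaks and in the middle 500 bases. The E-box CAGATG was in 19 of 24 peaks (79.2%, against 74.8% of all peaks). It was in 5 of 7 at *Foxp1*, 4 of 7 at *Foxp2* and all 10 at *Foxp4*. In the middles its share was 62.5%, against 57.3% of all middles and 32.8% of the windows. The homeodomain word TAATTA was in 14 (58.3% against 46.7%). These were 4 of 7 at *Foxp1*, 6 of 7 at *Foxp2* and 4 of 10 at *Foxp4*, and peak 5159 carried 3 copies in its middle 200 bases. In the middles TAATTA had a share of 50%, against 31.3% of all middles and 16.9% of the windows. Whole peaks of the family held 1.16 copies of it per kb, against 0.70 in all peaks. By the same measure the E-box had 1.27 against 1.28, the Sox word 0.76 against 0.67 and the Rfx word 0.11 against 0.17. TGTTTAC had 0.29 against 0.18 and TATTTGT 0.22 against 0.25. The Sox word AACAAT was in 14 (58.3% against 48.4%), 5 of 7 at *Foxp1*, 6 of 7 at *Foxp2* and 3 of 10 at *Foxp4*. In the middles its share was 37.5% against 27.0% of all and 29.2% of the windows. The Rfx word was in 3 (12.5% against 16.5%; in the middles 8.3% against 9.6% of all and 5.1% of the windows). The Nfi palindrome, counted only as an exact word, was in 24 of all 6629 peaks (0.4%), and the family had it in 1, *Foxp2* peak 5157, the peak nearest to the start site, printed above. The paper scored weight matrices instead and reports Nfi motifs in far more of these peaks. The exact word therefore does not measure how common Nfi sites are. The Rfx word is likewise only a part of the paired Rfx motif in the paper. The *Foxp2* peaks were the poorest in GC, and the part of base composition in these shares was not tested.

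Peak 5159, the widest at *Foxp2*, is printed for its 3 homeodomain words.
Foxp2 peak 5159, chr6:15273238-15273437: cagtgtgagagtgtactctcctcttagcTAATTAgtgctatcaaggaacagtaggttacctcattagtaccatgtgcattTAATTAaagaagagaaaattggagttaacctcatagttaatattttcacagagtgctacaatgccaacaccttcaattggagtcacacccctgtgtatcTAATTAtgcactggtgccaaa
Here too the plus strand of NCBIM37 is given, with the words in capitals.

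Related genes were counted by the same rule, in lists chosen with earlier results of these data known. Of 40 other forkhead genes, *Foxp3* included, 3 passed the test (7.5%, against 4.09% of all coding genes) and the median was 2 peaks. They were *Foxo6*, a factor of the insulin-responsive Foxo group, with 14 peaks (adjusted p = 8.40e-05, exact binomial test), *Foxn3*, a repressor, with 13 (adjusted p = 3.64e-04, exact test) and *Foxn1*, the factor of thymic epithelium, with 9 (adjusted p = 0.0354, exact test).

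Among 16 genes for known protein partners of Foxp factors, 2 passed (12.5%, against 4.09% of all coding genes). Their median was 4 peaks, against 1 over all coding genes. *Sox5*, a regulator of deep-layer neurons, had 10 peaks (adjusted p = 0.0222, exact binomial test) and the co-repressor gene *Ctbp2* had 9 (adjusted p = 0.0354, exact test). The partners *Tbr1* and *Lmo4* had 7 and 8 peaks and did not pass (adjusted p = 0.197 and 0.087, exact test). Among 12 genes reported elsewhere as Foxp targets, 3 passed (25%, against the same 4.09%), with a median of 4.5 peaks. *Sox2*, a progenitor factor, had 13 peaks (adjusted p = 3.64e-04, exact binomial test). *Robo1*, an axon guidance receptor, had 12 (adjusted p = 0.00145) and *Mitf*, the melanocyte factor, had 11 (adjusted p = 0.00503, exact tests). The best known of the targets, *Cntnap2*, had 8 peaks across its very long gene and did not pass (adjusted p = 1, exact test). With so few genes in each list these shares say nothing particular to Foxp partners or targets.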

How the data were processed

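The p300 peaks were analysed as deposited, from 1 ChIP library; no data of the input library were analysed here. The authors aligned 36 bp reads to mm9 with ELAND, kept unique alignments with at most 2 mismatches, called peaks with MACS (version 1.4 by the submitters' processing notes) with the input as control and a shift of 100 bp, and discarded peaks overlapping exons, near start sites (2.5 kb) or of doubtful mapping. The deposited values are start and end positions without score. NCBIM37 is the mm9 assembly; genes came from GENCODE vM1. The locus count of each of 22367 protein-coding genes was compared with its share of 2.56 Gb of assembled bases on the chromosomes (exact binomial test for an excess, one-sided, adjusted by Benjamini-Hochberg, threshold 0.05). Peaks cluster and neighbouring loci overlap, so the tests are not independent. The code was tested on simulated peaks placed at random, with and without peaks added to chosen loci; such peaks do not cluster as the deposited ones do. Python 3.11.15, numpy 2.4.6, scipy 1.17.1, pysam 0.24.0, blastn 2.17.0 and matplotlib 3.10.9 were used. Peaks described singly were the nearest and farthest on each side, the widest and the narrowest of each locus, with the remaining ones added after their values were seen. Genes named otherwise are those with the start nearest to a peak and the listed genes that passed; *Tbr1*, *Lmo4*, *Cntnap2*, *Tcfeb* and *Gm15556* were added after their values were seen. Members, gene lists and words were chosen with earlier results of these data known. Intervals cover counting error only. Alternatives changed the reach, start sites, peak set, overlap rule, expected share, domains, gene set and sequence searched.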

Additional observations from a re-analysis of the deposited data

How the results depend on the processing

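The fold of every locus stayed above 1 with each alternative except that of *Foxp4* in domains bounded by all annotated genes, where a neighbouring start leaves a domain with 0 peaks (0.02 predicted). For *Foxp2* all 12 alternatives left the count below the threshold (5 to 11 peaks, adjusted exact binomial p 0.109 to 0.506). For *Foxp1* 12 of 13 did (3 to 15 peaks); the exception was the reach of 1 Mb, with 15 peaks. For *Foxp4* 10 of 12 kept the call; it was lost in those domains and with the reach of 1 Mb, which holds the same 10 peaks in more sequence. The number of coding genes called, 914, was 468 with a reach of 250 kb and 1537 with 1 Mb. It was 252 and 132 with domains between coding and between all genes. A domain can be longer or shorter than the main locus. Between coding genes 3.41 peaks were predicted at *Foxp1* (main 2.59) and 0.62 at *Foxp4* (main 2.56). The number called was 459 with the peaks of median width or wider and 515 with peaks under 5 kb apart joined, both with fewer peaks. The share of peaks nearest to the start used for their own Foxp gene went from 62.5% to 16.7% with 1 start for each annotated gene, since more starts compete. No word share left the interval of its main value in the middle 500 bases. With 1 library no replicate could be left out, and no paired analysis was possible because there is 1 sample of each kind. Single peaks carry no depth, and positions closer than a peak's width cannot be told apart.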

Other observations

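The 24 Foxp peaks were compared with one another for similar sequence (blastn, E-value limit 0.001, low-complexity sequence masked). Of 276 pairs, 3 had a match and none of these joined peaks of different Foxp genes. The matches linked *Foxp4* peaks 2708, 2709 and 2711, and the longest was 75 bp at 88% identity, from 48126762 to 48126836 on chromosome 17 in peak 2708. That stretch matched 131 of all 6629 p300 peaks (1.98%). The genome used was not masked for repeats, and whether the stretch belongs to a repeat family was not tested.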
